A study of Caenorhabditis elegans with 21 samples.

Results

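Nuclear hormone receptors are transcription factors that bind DNA through a zinc finger domain and carry a second domain that can hold a small fat-soluble ligand such as a steroid or a fatty acid. Caenorhabditis elegans has an unusually large family of them, much of it grown from an ancestor related to the mammalian receptor HNF4. Members with a known role link diet and stored fat to metabolism, time moulting and development, and switch on genes against toxins and pathogens, several of them in the intestine. For most of the family no role is given here.

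The genes described are those whose symbol is nhr- followed by a number, with nhr-49 left out, and with at least 1 FPKM in at least 3 of the 21 libraries. FPKM counts sequenced fragments for each kilobase of a transcript and scales them to the size of the library. The table holds 268 such symbols without nhr-49, and 187 of them met the minimum, among 17492 genes that met it in the whole table. All 187 are annotated as protein coding.

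The libraries are of whole N2 worms, the wild-type laboratory strain, grown at 20 °C on OP50 bacteria and collected on day 1 of adulthood. Each of the 7 groups has 3 libraries. In 1 group the worms were starved for 15 h. In 4 groups they were moved at the L4 larval stage to plates with a drug, which was 200 µM fluphenazine, an antipsychotic phenothiazine, 200 µM cantharidin, an inhibitor of protein phosphatases PP1 and PP2A, or bortezomib, an inhibitor of the proteasome, at 10 µM or 25 µM. A further group was fed from the L3 stage on bacteria for RNAi of rpn-6, which encodes a subunit of the proteasome lid. Untreated worms were the controls, and no vehicle or empty-vector group is named in the labels, so a treatment cannot be told apart from its vehicle or from RNAi feeding. The labels do not state if a group's 3 libraries came from separate cultures, so p-values measure the spread between these libraries, which may be technical.

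The RNAi target rpn-6.1 had 115, 122 and 127 FPKM in rpn-6 RNAi worms, against 168, 168 and 130 FPKM in controls. It was lower in each RNAi library than in each control, but the log2 difference of -0.35 (SE 0.14, adjusted p = 0.055) was not called, and starved worms stood at the same level with 112, 122 and 121 FPKM. Depth relative to control 4 ran from 0.953 to 1.52, and the absolute depth is unknown. In 3 libraries, control 7, fluphenazine 4 and starvation 3, values stood apart from the other libraries of their group. Over the 187 receptor genes, starvation 3 had a mean correlation of 0.904 with its group, fluphenazine 4 of 0.888 and control 7 of 0.948, and results that rest on these libraries are also given without them.

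Most receptor genes were expressed at a low level. The median of the members' mean levels was 6.58 FPKM, against 15.3 FPKM over all tested genes. Means reached 10 FPKM in 55 members and stayed under 2 FPKM in 34. The 10 most abundant members, nhr-97, nhr-23, nhr-114, nhr-68, nhr-66, nhr-86, nhr-88, nhr-46, nhr-274 and nhr-21, held 23.2% of the summed level. In every library 134 members reached 1 FPKM. Of the 81 symbols left out, 4 were listed at 0 throughout and 12 reached 1 FPKM in some library, among them nhr-263 (up to 2.96 FPKM, in 2 libraries at 1 or more) and nhr-239 (up to 1.91 FPKM). Just inside the minimum, nhr-265 and nhr-249 reached 1 FPKM in 3 libraries.

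In the WBcel235 annotation 115 of the 187 genes (61.5%) lie on chromosome V, which holds 21.1% of the tested genes. A further 27 lie on chromosome IV and 16 on X. For 96 members a nearest annotated neighbour is another nhr gene, and 40 overlap an annotated gene. Use of strand in the counting is not given in the sources used here, and reads of overlapping genes may not be separable. Reads shared between near-identical copies could not be checked either, because no receptor sequences were used.

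The summed level of the 187 genes was higher in each treated library than in each control. Starved libraries had 1914 to 2615 FPKM, fluphenazine libraries 1713 to 2378 FPKM and cantharidin libraries 1961 to 2083 FPKM. The sum was 1501 to 1589 FPKM in rpn-6 RNAi, 1451 to 1560 FPKM in 10 µM bortezomib and 1663 to 1771 FPKM in 25 µM bortezomib, against 1175 to 1238 FPKM in controls. In a whole worm, fewer cells of a type and less RNA per cell cannot be told apart, here and in what follows. With 1 mean per group in limma and adjustment over all tested genes, 169 of 187 members differed among the 7 groups at an adjusted p under 0.05, beside 77.3% of all tested genes. The abundant nhr-66 and nhr-46 were among the 18 that did not pass.

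Against control, called receptor genes were mostly higher in each of the 6 treatments. In starvation 135 members rose and 5 fell, where 39.1% of all tested genes rose and 18.4% fell. In fluphenazine 126 rose and 2 fell, beside 34.4% and 9.39% of all tested genes. In cantharidin 126 rose and 4 fell, beside 31.9% and 5.96%. The share of receptor genes that rose was 72.2% in starvation and 67.4% in each of the 2 drugs. Neuronal markers were higher too: of 6, 4 rose in starvation, 4 in fluphenazine and 5 in cantharidin. With rpn-6 RNAi 4 rose, with 10 µM bortezomib 0 and with 25 µM bortezomib 4. Their summed level was 398 to 505 FPKM in starvation, 426 to 459 FPKM in fluphenazine and 420 to 434 FPKM in cantharidin. With rpn-6 RNAi it was 404 to 436 FPKM. It was 333 to 342 FPKM at 10 µM and 450 to 479 FPKM at 25 µM bortezomib, against 268 to 306 FPKM in controls, and no neuronal marker was at 0. All 6 sperm markers rose at 25 µM bortezomib, with a sum of 440 to 497 FPKM, against 53.6 to 241 FPKM in controls. The part of these cells in the receptor counts was not tested.

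In rpn-6 RNAi 79 members rose (42.2%) and 19 fell (10.2%), beside 27.9% and 8.81% of all tested genes. In 10 µM bortezomib 35 rose (18.7%) and 2 fell (1.07%), beside 9.61% and 3.24%, and in 25 µM bortezomib 105 rose (56.1%) and 14 fell (7.49%), beside 42.3% and 11.1%. Between the doses 66 members were higher and 24 lower at 25 µM than at 10 µM, beside 27.2% and 12.4% of all tested genes.

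**Figure D1:**
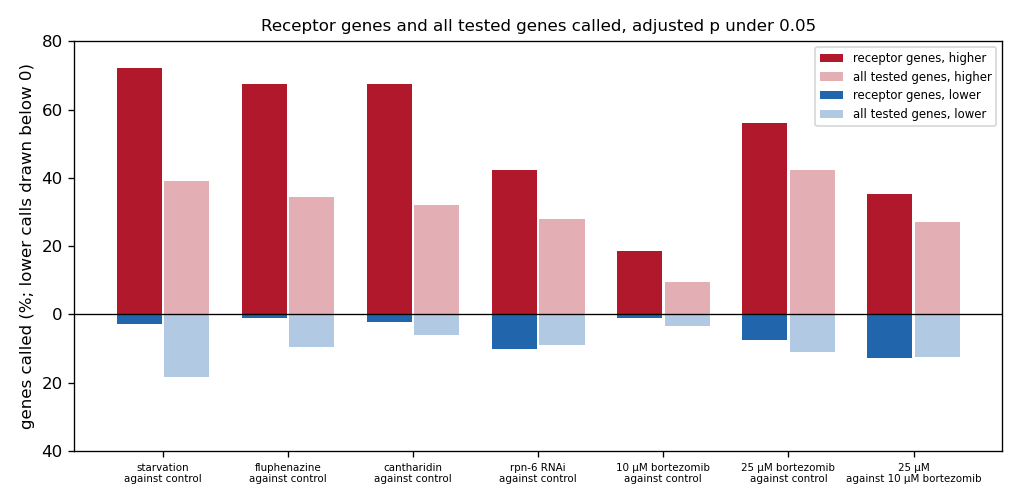
Share of genes called in each comparison (percent, adjusted p under 0.05), higher above 0 and lower below it, for the 187 receptor genes (dark bars) beside all 17492 tested genes (pale bars). Receptor genes that rose reach 72.2% in starvation and 67.4% in fluphenazine and cantharidin. The bars are for values as deposited; under quantile normalization lower calls outnumber higher ones in rpn-6 RNAi and at both bortezomib doses, among receptor genes and among all tested genes.

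These counts depend on how libraries are scaled. The median of all genes was itself above control, by log2 0.38 in starvation, by 0.34 in each of fluphenazine and cantharidin, by 0.31 in rpn-6 RNAi, and by 0.16 and 0.40 at 10 µM and 25 µM bortezomib. Relative to that median the receptor genes' median was higher by log2 0.47 in starvation, 0.48 in fluphenazine and 0.41 in cantharidin, but by 0.07 in rpn-6 RNAi, 0.03 at 10 µM and 0.11 at 25 µM bortezomib. Above the median of all genes lay 144, 149 and 148 of the 187 in starvation, fluphenazine and cantharidin, and 103, 101 and 113 in rpn-6 RNAi, 10 µM and 25 µM bortezomib.

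Median-of-ratios scaling, which brings the median of all genes near the controls, left 110 higher and 12 lower in starvation, 97 and 10 in fluphenazine and 93 and 8 in cantharidin. For rpn-6 RNAi it left 53 and 30, for 10 µM bortezomib 15 and 6 and for 25 µM 65 and 34. Between the doses it left 51 and 28. Of all tested genes this scaling left 29.1% higher and 28.6% lower in starvation, 23.2% and 26.8% in fluphenazine and 19.5% and 19.3% in cantharidin. For rpn-6 RNAi the shares were 15.9% and 14.8%, for 10 µM bortezomib 5.06% and 8.18%, for 25 µM 29.0% and 25.5%, and between the doses 21.7% and 17.2%.

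Quantile normalization, which forces one distribution on every library, gave 51 and 18 in starvation, 43 and 28 in fluphenazine and 26 and 26 in cantharidin. It gave 27 and 50 in rpn-6 RNAi, 9 and 13 at 10 µM and 23 and 76 at 25 µM bortezomib, and 16 and 53 between the doses. Over all tested genes lower calls outnumbered higher ones in every comparison under this normalization. The shares were 19% higher and 26.2% lower in starvation, 13.5% and 22.3% in fluphenazine, and 10.2% and 16.5% in cantharidin. With rpn-6 RNAi they were 13.7% and 16%. They were 4.37% and 6.15% at 10 µM, 19.7% and 28.6% at 25 µM, and 13.1% and 20.3% between the doses.

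Members called the same way in all 3 scalings are given beside the same count over all genes. In starvation 49 rose and 5 fell, beside 16.4% and 17.9% of all tested genes, and in fluphenazine 43 rose and 2 fell, beside 11.4% and 8.75%. In cantharidin 26 rose and 4 fell, beside 8.66% and 5.28%. In rpn-6 RNAi 27 rose and 19 fell (11.5% and 7.86% of all genes), in 10 µM bortezomib 9 and 2 (3.46% and 2.53%) and in 25 µM bortezomib 23 and 14 (17.5% and 10.5%). Between the doses 16 were higher and 24 lower at 25 µM (11.9% and 12.2%). Without control 7, fluphenazine 4 and starvation 3, as deposited, 126 rose and 16 fell in starvation, 151 and 10 in fluphenazine and 144 and 9 in cantharidin. On the same libraries 96 rose and 26 fell in rpn-6 RNAi, 62 and 3 at 10 µM and 118 and 23 at 25 µM bortezomib. The shares of all tested genes on these libraries were 45.4% higher and 25.2% lower in starvation, 50.5% and 25.2% in fluphenazine and 47% and 18.3% in cantharidin. They were 44.4% and 13.2% in rpn-6 RNAi, 24.3% and 6.37% at 10 µM and 50.3% and 21.8% at 25 µM bortezomib.

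The treatments were then set against each other directly, which needs no control mean, though the controls still entered the error of the fit. Groups given rpn-6 RNAi or bortezomib are named here by the intended effect, as those with the proteasome impaired. The activity of the proteasome is not in these data. A member was counted as higher with the proteasome impaired if rpn-6 RNAi and 25 µM bortezomib were each higher than each of starvation, fluphenazine and cantharidin, 6 contrasts in all, each called. This count was added after the values were seen. Higher in all 6 contrasts were 7 members (3.74%), beside 4.64% of all tested genes, and lower in all 6 were 31 members (16.6%), beside 3.87% of all tested genes. Median-of-ratios scaling gave 6 and 37 members, beside 3.97% of all tested genes each way, and quantile normalization 6 and 31, beside 3.93% and 4.26%. Shared by the 3 scalings were 5 higher and 27 lower members, beside 3.48% and 3.4%. Without the 3 libraries that stand apart the counts were 12 and 45, beside 7.15% and 5.74%.

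**Figure D2:**
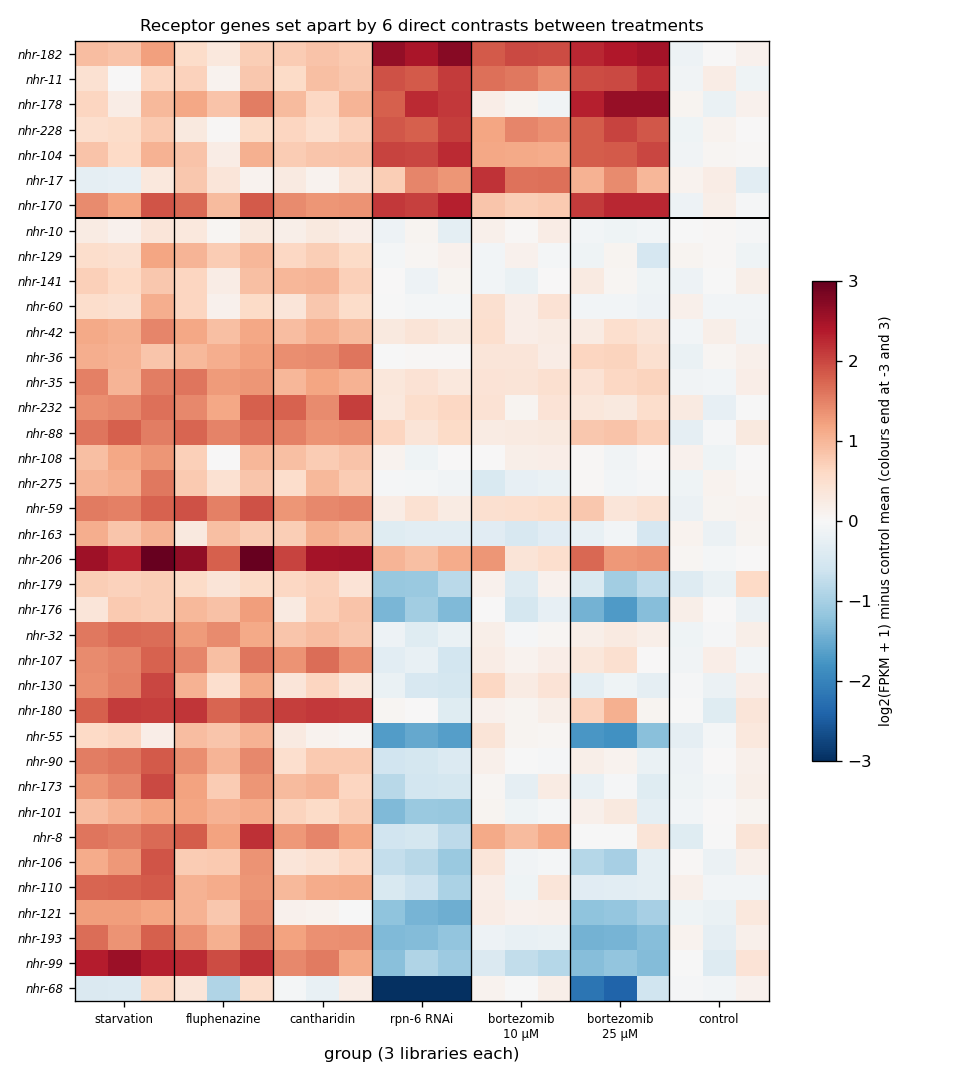
log2(FPKM + 1) of each library minus the control mean (colour, ends at -3 and 3) for the 7 receptor genes above the line, higher in rpn-6 RNAi and 25 µM bortezomib than in each of starvation, fluphenazine and cantharidin, and the 31 below it, lower in those 2 groups. The rows were chosen by these contrasts, which hold no mean of 10 µM bortezomib or control. Those libraries entered the filter and the error of the fit.

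The 7 higher members were nhr-182, nhr-228, nhr-104, nhr-11, nhr-178, nhr-170 and nhr-17. nhr-182 had 37.7, 32.7 and 40.1 FPKM in rpn-6 RNAi, 21.1, 23.5 and 23.1 FPKM in 10 µM bortezomib and 28.8, 31.6 and 34.1 FPKM in 25 µM bortezomib, against 4.56, 5.22 and 5.80 FPKM in controls. Every library with the proteasome impaired lay above every library of the other groups, where the highest value was 13.6 FPKM in starvation 3. Its log2 change was 2.61 in rpn-6 RNAi, 1.93 at 10 µM and 2.39 at 25 µM bortezomib, each with an SE of 0.13 and adjusted p-values of 1.83e-10, 1.02e-07 and 7.12e-10 in limma. Set directly against starvation, nhr-182 was higher by log2 1.60 in rpn-6 RNAi, 0.92 at 10 µM and 1.38 at 25 µM bortezomib (SE 0.13 each). All 3 contrasts were called, but those of rpn-6 RNAi and 25 µM were among the 6 that chose the 7 members.

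nhr-228 and nhr-104 had a like order of groups. nhr-228 had 32.7, 31.0 and 38.1 FPKM in rpn-6 RNAi, 19.9, 24.7 and 23.1 FPKM at 10 µM and 31.6, 36.6 and 32.5 FPKM at 25 µM bortezomib, against 7.45, 8.99 and 8.41 FPKM in controls. nhr-104 had 30.1, 29.1 and 35 FPKM in rpn-6 RNAi, 15.8, 15.6 and 15.5 FPKM at 10 µM and 25.6, 26.1 and 29.1 FPKM at 25 µM bortezomib, against 6.09, 6.91 and 6.75 FPKM in controls. In both genes the 3 groups with the proteasome impaired lay wholly above the other 4. The log2 changes against control in rpn-6 RNAi, 10 µM and 25 µM bortezomib were 1.91, 1.34 and 1.90 for nhr-228 (SE 0.14) and 2.09, 1.13 and 1.88 for nhr-104 (SE 0.17), all called. For nhr-104 the rises in 10 µM bortezomib and in starvation (log2 0.30 apart, SE 0.17, adjusted p = 0.14) did not differ beyond their error.

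nhr-11 had 16.1, 15.1 and 18.5 FPKM in rpn-6 RNAi, 13.4, 12.5 and 10.8 FPKM at 10 µM and 16.6, 16.8 and 19.9 FPKM at 25 µM bortezomib, against 3.25, 4.28 and 3.16 FPKM in controls. Its changes were log2 1.95, 1.54 and 2.04 (SE 0.19, adjusted p = 5.35e-07, 6.31e-05 and 3.40e-07). nhr-17 was the 1 member of the 7 whose highest level was in 10 µM bortezomib, with 43.5, 29.6 and 30.0 FPKM, beside 15.6, 26.5 and 23.7 FPKM in rpn-6 RNAi and 19.5, 25.5 and 18.7 FPKM in 25 µM bortezomib, against 9.69, 10.5 and 6.96 FPKM in controls. rpn-6 RNAi library 4 lay below fluphenazine library 2 (16.3 FPKM), so those groups overlap. The 2 doses differed by log2 -0.66 (25 µM minus 10 µM, SE 0.24, adjusted p = 0.039), a call lost when any of 4 single libraries was left out.

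**Figure D3:**
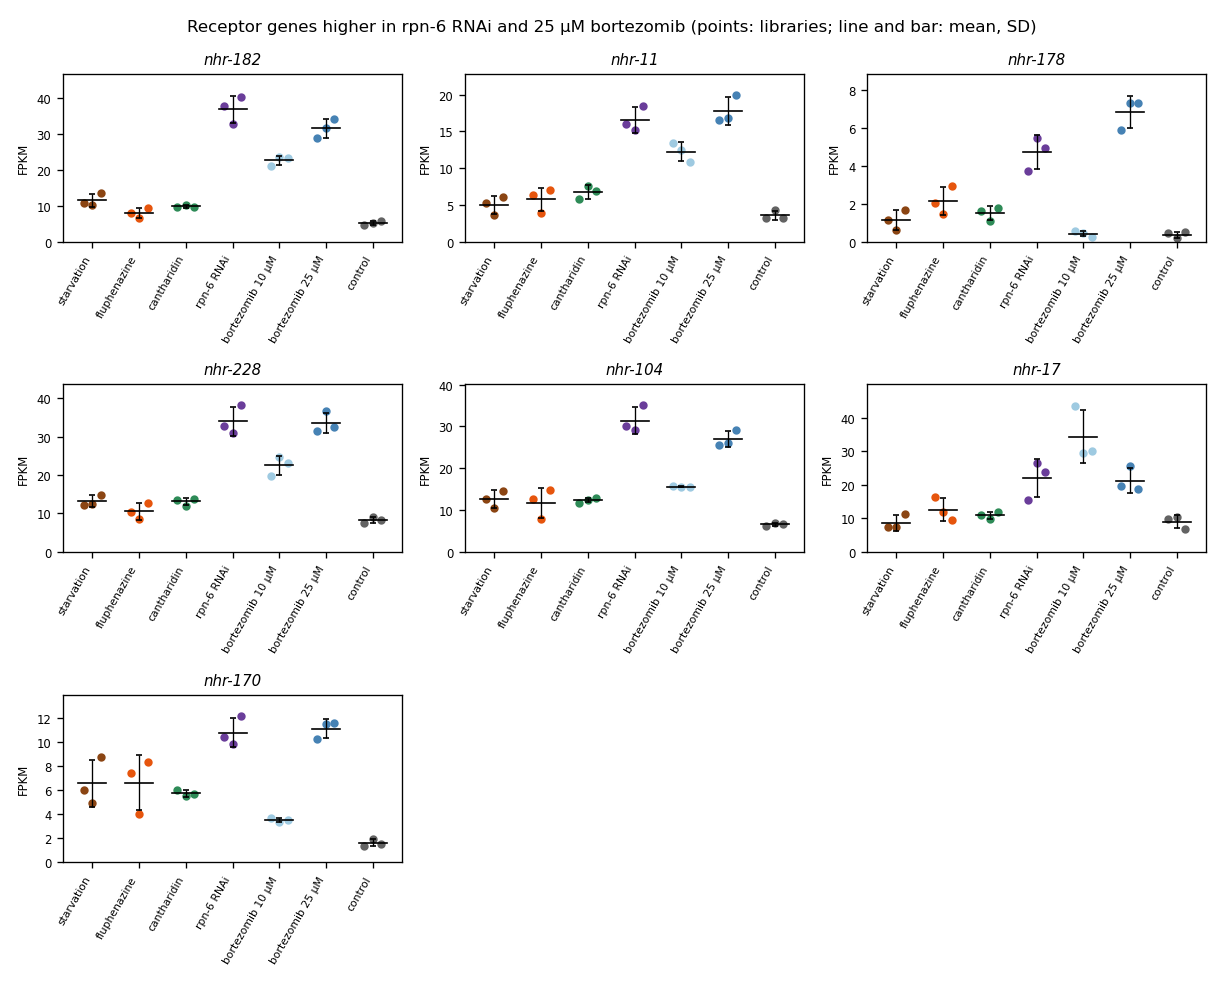
FPKM of the 7 higher receptor genes in every library (points), with the mean and SD of each group (line and bar). In nhr-182, nhr-228 and nhr-104 the 3 groups with the proteasome impaired lie above the other 4, and in nhr-178 the 10 µM bortezomib libraries lie at the level of the controls.

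nhr-178 separated the 2 bortezomib doses. It had 0.55, 0.44 and 0.26 FPKM at 10 µM and 5.85, 7.31 and 7.30 FPKM at 25 µM, beside 3.74, 5.45 and 4.94 FPKM in rpn-6 RNAi, against 0.43, 0.18 and 0.48 FPKM in controls. At 25 µM all libraries lay above those of every other group, and at 10 µM the libraries overlapped the controls. It was higher at 25 µM than at 10 µM by log2 2.46 (SE 0.21, adjusted p = 2.14e-07). nhr-170 rose in all 6 treatments, most in rpn-6 RNAi (10.5, 9.83 and 12.2 FPKM) and 25 µM bortezomib (10.2, 11.6 and 11.6 FPKM), against 1.37, 1.98 and 1.55 FPKM in controls. Its rise of log2 0.79 at 10 µM was not called under quantile normalization or without control 4 or any 1 of the 10 µM libraries, nor was that in cantharidin under quantile normalization. nhr-154 was outside the 7 but had 19.1, 22.8 and 25.3 FPKM in rpn-6 RNAi, against 5.54, 5.55 and 3.90 FPKM in controls. It was singled out after its values were seen, and its highest value in any other library was 11.8 FPKM, in cantharidin 9.

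The 31 lower members included nhr-99 and nhr-193, the 2 receptor genes with the largest F over the 7 groups. nhr-99 had 16.9, 20.0 and 16.7 FPKM in starvation, 15.6, 12.8 and 15.1 FPKM in fluphenazine and 8.54, 9.43 and 6.75 FPKM in cantharidin. It had 0.47, 0.87 and 0.66 FPKM in rpn-6 RNAi, 1.61, 1.13 and 0.95 FPKM at 10 µM and 0.45, 0.56 and 0.43 FPKM at 25 µM bortezomib, against 2.48, 1.70 and 3.65 FPKM in controls. The controls lay between the 2 sets of treatments with no overlap on either side. Changes against control were log2 2.42 in starvation, 2.13 in fluphenazine and 1.38 in cantharidin, and -1.09 in rpn-6 RNAi, -0.67 at 10 µM and -1.25 at 25 µM bortezomib (SE 0.19), all called. The call in 10 µM bortezomib was lost without control 7 (and without either of 2 of its own libraries or control 4), and that in cantharidin under quantile normalization. rpn-6 RNAi lay log2 3.51 below starvation (-3.51, SE 0.19).

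nhr-193 had 9.37, 7.33 and 10.2 FPKM in starvation, 7.46, 5.75 and 8.73 FPKM in fluphenazine and 6.46, 7.36 and 7.47 FPKM in cantharidin. It had 0.29, 0.31 and 0.43 FPKM in rpn-6 RNAi, 1.94, 1.79 and 1.84 FPKM at 10 µM and 0.22, 0.23 and 0.35 FPKM at 25 µM bortezomib, against 2.51, 1.72 and 2.59 FPKM in controls. The 10 µM libraries overlapped the controls, and the 25 µM and RNAi libraries lay below both. The rises were log2 1.61, 1.34 and 1.32 and the falls -1.28 in rpn-6 RNAi and -1.36 in 25 µM bortezomib (SE 0.16, adjusted p = 6.32e-06 and 3.05e-06). An annotated gene, W08G11.5, overlaps nhr-193.

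Other members of the 31 differed in how far they left the controls. nhr-32 had 26.6, 29.2 and 28.9 FPKM in starvation, and its 9 libraries with the proteasome impaired (6.19 to 10.3 FPKM) overlapped the controls (7.48, 8.08 and 9.43 FPKM). It rose by log2 1.65 in starvation (SE 0.11), and its changes of -0.24 in rpn-6 RNAi, 0.06 at 10 µM and 0.20 at 25 µM bortezomib were not called. nhr-101 had 6.31, 7.56 and 7.37 FPKM in rpn-6 RNAi, against 16.4, 17.4 and 18.3 FPKM in controls (log2 -1.19, SE 0.13). In 25 µM bortezomib nhr-101 had 19.6, 21.6 and 13.9 FPKM, and the 2 ways of impairing the proteasome differed by log2 1.24 (25 µM bortezomib minus rpn-6 RNAi, SE 0.13, adjusted p = 1.1e-05).

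nhr-110 and nhr-88 show both ends of this range. nhr-110 had 14.7, 15.0 and 15.7 FPKM in starvation and 2.39, 2.05 and 1.44 FPKM in rpn-6 RNAi, against 4.17, 3.45 and 3.44 FPKM in controls, so that starvation lay above the controls (log2 1.79, SE 0.15) and rpn-6 RNAi below them (-0.67, adjusted p = 0.0018). nhr-88 had 51.8, 58.9 and 49.1 FPKM in starvation, 29.3, 30.5 and 27.6 FPKM in 25 µM bortezomib and 26.1, 21.8 and 25.1 FPKM in rpn-6 RNAi, against 13.3, 16.1 and 20.5 FPKM in controls. Both groups with the proteasome impaired thus lay between starvation and the controls, with rises of log2 1.64 in starvation, 0.79 in 25 µM bortezomib and 0.54 in rpn-6 RNAi (SE 0.13). The rise in rpn-6 RNAi was not called after median-of-ratios scaling, and neither of the last 2 under quantile normalization.

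nhr-121 and nhr-55 fell in rpn-6 RNAi and 25 µM bortezomib and not in 10 µM bortezomib. nhr-121 had 2.69, 2.27 and 2.10 FPKM in rpn-6 RNAi and 2.69, 2.81 and 3.26 FPKM in 25 µM bortezomib, and 8.99, 8.36 and 8.47 FPKM in 10 µM bortezomib, against 6.78, 6.52 and 9.73 FPKM in controls. nhr-55 had 1.34, 1.57 and 1.37 FPKM in rpn-6 RNAi and 1.22, 1.12 and 2.14 FPKM in 25 µM bortezomib, and 8.76, 6.89 and 6.82 FPKM in 10 µM bortezomib, against 5.19, 6.19 and 8.33 FPKM in controls. In both genes the RNAi and 25 µM libraries lay below all others and the 10 µM libraries overlapped the controls. The fall at 25 µM was log2 -1.13 for nhr-121 (SE 0.16) and -1.60 for nhr-55 (SE 0.18).

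nhr-68 and nhr-114 showed the deepest falls of the family against control. In rpn-6 RNAi the knockdown and the RNAi bacteria as food cannot be told apart, since no empty-vector group is named. nhr-10 and nhr-68 act in turn to switch on the propionate shunt, a spare route for breaking down propionate when vitamin B12 is short, and nhr-114 takes part in the response to low vitamin B12 and in protecting the germline from diet-derived metabolites. nhr-68 had 1.82, 2.72 and 2.19 FPKM in rpn-6 RNAi, 57.1, 52.7 and 59.5 FPKM at 10 µM and 10.9, 9.16 and 34.5 FPKM at 25 µM bortezomib, against 51.9, 49.6 and 57.8 FPKM in controls. Every RNAi and 25 µM library lay below every control, 25 µM library 6 stood apart from its group, and the 10 µM libraries overlapped the controls. The change was log2 -4.07 in rpn-6 RNAi (SE 0.42, adjusted p = 7.84e-07) and -1.73 in 25 µM bortezomib (adjusted p = 0.0026), and the fall at 25 µM was not called in the fit of these 2 groups with the replicate number as a block. Starvation, fluphenazine and cantharidin (28.1 to 83.5 FPKM) overlapped the controls in nhr-68.

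nhr-114 had 4.96, 5.86 and 4.43 FPKM in rpn-6 RNAi, 72.0, 80.2 and 93.2 FPKM at 10 µM and 10.5, 9.35 and 27.2 FPKM at 25 µM bortezomib, against 82.1, 108 and 124 FPKM in controls. The other treatments also lay below every control, with 24.0, 16.7 and 49.1 FPKM in starvation, 40.6, 18.7 and 56.3 FPKM in fluphenazine and 27.1, 25.5 and 21.1 FPKM in cantharidin. The falls were log2 -1.89 in starvation, -1.53 in fluphenazine and -2.04 in cantharidin, and -4.11 in rpn-6 RNAi and -2.80 in 25 µM bortezomib (SE 0.41), while 10 µM bortezomib (-0.34, adjusted p = 0.65) was not called and overlapped the controls. The fall in fluphenazine was not called in the fit of only those 2 groups. rpn-6 RNAi was below starvation by log2 -2.21 (SE 0.41, adjusted p = 0.0004). An antisense gene, Y45G5AM.9, overlaps nhr-114. nhr-10, which stands upstream of nhr-68, was not called against control in any treatment and ranged from 19.2 to 30.7 FPKM over all 21 libraries. It was still among the 31 members lower in all 6 direct contrasts, though not in all 3 scalings.

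**Figure D4:**
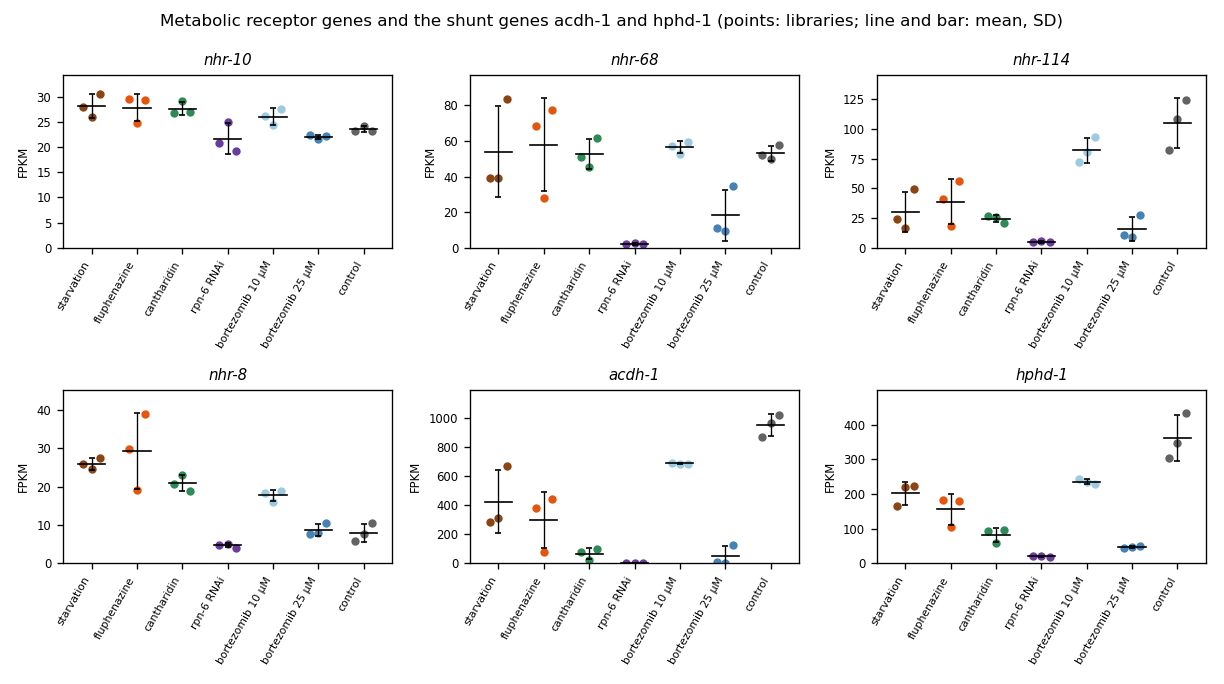
FPKM of nhr-10, nhr-68, nhr-114, nhr-8 and the shunt genes acdh-1 and hphd-1 in every library (points), with the mean and SD of each group (line and bar). nhr-68 and nhr-114 are lowest in rpn-6 RNAi, nhr-10 stays between 19.2 and 30.7 FPKM, and 25 µM bortezomib library 6 lies above the other 2 of its group in nhr-68, nhr-114 and acdh-1.

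The shunt genes that nhr-10 and nhr-68 are known to control were also low. Of 5, all fell in rpn-6 RNAi, 25 µM bortezomib and cantharidin, 3 in starvation, 3 in fluphenazine and 1 (ech-6) in 10 µM bortezomib, and none rose. Of all tested genes 8.81% fell in rpn-6 RNAi, 11.1% in 25 µM bortezomib and 5.96% in cantharidin. The shares were 18.4% in starvation, 9.39% in fluphenazine and 3.24% in 10 µM bortezomib. acdh-1, the acyl-CoA dehydrogenase that opens the shunt, had 1.28, 3.13 and 0.88 FPKM in rpn-6 RNAi and 11, 3.99 and 128 FPKM in 25 µM bortezomib, where library 6 was again the highest, against 866, 963 and 1018 FPKM in controls. The falls were log2 -8.51 and -5.59 (SE 0.90). Here too, the knockdown and the bacterial food cannot be told apart in rpn-6 RNAi. In cantharidin acdh-1 fell by log2 4.03 (-4.03, SE 0.90), to 77.1, 23.5 and 100 FPKM, while nhr-68 stood at 50.8, 45.3 and 61.9 FPKM. hphd-1 fell in the same 3 treatments by log2 4.08 (-4.08), 2.92 (-2.92) and 2.12 (-2.12), with an SE of 0.21.

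Summed over the 5 intestinal markers in the table, the level was 502 to 710 FPKM in rpn-6 RNAi and 676 to 982 FPKM in 25 µM bortezomib, against 1256 to 2211 FPKM in controls. The single markers went both ways. Of the 5, ges-1 and asp-1 fell in both groups, elt-2, the main transcription factor of the intestine, rose in both (log2 0.84 and 1.63, SE 0.22), and ifb-2, an intermediate filament protein, rose at 25 µM bortezomib (log2 1.44, SE 0.38). vha-6 was listed at 0 in 2 cantharidin libraries and at 186 FPKM in the third, and no marker was at 0 in rpn-6 RNAi, 25 µM bortezomib or control. The part of these markers in the falls of nhr-68 and nhr-114 was not tested.

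Among the 9 receptors of the fat and diet list, nhr-62, needed for the long life of worms on a restricted diet, rose in all 6 treatments. It had 9.52, 10.3 and 14.3 FPKM in rpn-6 RNAi and 12.7, 11.9 and 8.33 FPKM in 25 µM bortezomib, against 3.08, 3.04 and 2.02 FPKM in controls, with log2 changes of 1.73 and 1.68 (SE 0.20). Only these 2 rises of nhr-62 were called in all 3 scalings. Its smallest rise, log2 0.69 in cantharidin, reversed under quantile normalization (-0.28). nhr-69, a receptor related to HNF4, rose in all treatments but 10 µM bortezomib, by up to log2 1.47 in starvation (SE 0.16). Its rises in rpn-6 RNAi and 25 µM bortezomib were not called in all 3 scalings (0.19 and 0.055 under quantile normalization). nhr-80, which acts on the desaturase genes fat-6 and fat-7, had 24.3, 27.0 and 30.3 FPKM in starvation and 21, 15.4 and 23.2 FPKM in fluphenazine, against 9.51, 8.72 and 13.5 FPKM in controls, and was called in these 2 treatments only, which does not show that the others differed from them. The call in fluphenazine was lost under quantile normalization and in the fit of only the 2 groups. nhr-66 and nhr-13, partners of nhr-49, were called in no treatment against control.

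The desaturases themselves did not follow one direction. fat-7 fell in all 6 treatments, by log2 4.83 (-4.83) in starvation and 5.49 (-5.49) in 25 µM bortezomib (SE 0.34), and had 0.91, 0.72 and 1.23 FPKM in starvation, against 58.5, 58.9 and 46.3 FPKM in controls. fat-6 had 421, 607 and 752 FPKM in starvation, against 216, 289 and 463 FPKM in controls. It rose in starvation by log2 0.91 (SE 0.24, adjusted p = 0.0056) and fell in rpn-6 RNAi (-0.74) and 25 µM bortezomib (-1.99). fat-5 rose by log2 3.91 in starvation. mdt-15, the Mediator subunit that works with several of these receptors, had 103, 103 and 102 FPKM in starvation, 96.6, 92.9 and 94.1 FPKM in fluphenazine and 82.2, 83.2 and 75.5 FPKM in cantharidin, against 53.6, 53.3 and 54.4 FPKM in controls. It rose by log2 0.92, 0.80 and 0.57 (SE 0.06), and was at 53.3, 55.1 and 52.4 FPKM in rpn-6 RNAi. Over the 22 coregulators listed (Mediator subunits, gei-8 and cbp-1), 3 rose and 9 fell in starvation and 6 rose and 0 fell in rpn-6 RNAi, with medians of log2 -0.36 and 0.23, beside 0.38 and 0.31 over all genes. Of all tested genes 39.1% rose and 18.4% fell in starvation, and 27.9% and 8.81% in rpn-6 RNAi. The 6 of 22 thus lay near the share of all genes. In fluphenazine 4 rose and 4 fell, beside 34.4% and 9.39% of all genes, and in cantharidin 5 and 0, beside 31.9% and 5.96%. At 10 µM bortezomib 2 rose and 0 fell (9.61% and 3.24% of all genes), and at 25 µM 3 and 2 (42.3% and 11.1%).

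Of the 9 receptors with a counterpart in insects or vertebrates, all rose in starvation and in fluphenazine, with medians of log2 1.34 and 1.24, where 39.1% and 34.4% of all tested genes rose and their medians were 0.38 and 0.34. In cantharidin 7 rose, in rpn-6 RNAi 5 rose and 1 fell, in 10 µM bortezomib 2 rose and in 25 µM bortezomib 4 rose. Of all tested genes 31.9% rose in cantharidin, 9.61% at 10 µM and 42.3% at 25 µM bortezomib. In rpn-6 RNAi 27.9% of all tested genes rose and 8.81% fell. The 4 of 9 at 25 µM thus lay near the share of all genes. nhr-85, the counterpart of Rev-Erb, had 7.85, 6.14 and 19.2 FPKM in starvation, where library 3 stood apart, 5.31, 5.37 and 8.21 FPKM in rpn-6 RNAi and 7.57, 9.06 and 10.1 FPKM in 25 µM bortezomib, against 1.04, 1.57 and 2.74 FPKM in controls. It rose in 5 treatments, by log2 1.41 to 2.01 (SE 0.36), and the change of 0.54 in 10 µM bortezomib was not called. nhr-6, the counterpart of the NR4A receptors, rose in the same 5, by log2 1.24 to 1.66 (SE 0.26), and nhr-41, related to TR2 and TR4, by log2 1.02 to 1.73 (SE 0.25). In all 3 scalings, nhr-85 was called in starvation, fluphenazine and 25 µM bortezomib, nhr-6 in rpn-6 RNAi only, and nhr-41 in starvation and fluphenazine. Of the 9 receptors, only nhr-8, nhr-41, nhr-85 and nhr-91 were so called in starvation, and only nhr-8, nhr-41 and nhr-85 in fluphenazine. nhr-48, a relative of daf-12, was evenly raised, with 15.1 to 21.5 FPKM over the 18 treated libraries, against 10.7, 11.8 and 11.1 FPKM in controls. Its rises of log2 0.43 to 0.80 were called in all 6 treatments but turned negative under quantile normalization in fluphenazine, cantharidin, rpn-6 RNAi and 25 µM bortezomib. nhr-91, related to the germ cell nuclear factor, had 9.18, 7.40 and 25.0 FPKM in starvation, against 2.23, 2.76 and 2.73 FPKM in controls (log2 1.87, SE 0.36), and was at 2.39 to 2.51 FPKM in rpn-6 RNAi.

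nhr-8, a relative of daf-12 that acts in cholesterol balance and drug resistance, went in both directions. It had 25.9, 24.5 and 27.6 FPKM in starvation, 29.9, 19.2 and 39.0 FPKM in fluphenazine, 20.7, 23.1 and 19 FPKM in cantharidin and 18.4, 15.9 and 18.7 FPKM in 10 µM bortezomib, against 5.87, 7.68 and 10.5 FPKM in controls. These 4 groups lay above every control, with rises of log2 1.61, 1.73, 1.31 and 1.08 (SE 0.22). In rpn-6 RNAi it had 4.89, 5.08 and 4.13 FPKM, below every control (log2 -0.63, adjusted p = 0.030), a call lost without control 7, without control 6, without either of 2 RNAi libraries and in the fit of only the 2 groups, with or without the replicate block. At 25 µM bortezomib it was lower than at 10 µM by log2 -0.96 (SE 0.22, adjusted p = 0.0026).

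nhr-23, the counterpart of ROR that drives moulting, was the second most abundant member and changed little: 54.9, 52.3 and 55.7 FPKM in starvation, against 41.9, 40.1 and 34.5 FPKM in controls (log2 0.48, SE 0.12, adjusted p = 0.0044), a call lost after median-of-ratios scaling. Its log2 0.35 in fluphenazine reversed under median-of-ratios scaling (-0.04). Of 10 moulting genes, which nhr-23 and nhr-25 are known to act on, 9 rose in starvation, 10 in fluphenazine and 5 in cantharidin, but 1 in rpn-6 RNAi, 0 at 10 µM and 2 at 25 µM bortezomib. The shares of all tested genes that rose were 39.1% in starvation, 34.4% in fluphenazine, and 31.9% in cantharidin. With rpn-6 RNAi the share was 27.9%, with 10 µM bortezomib 9.61% and with 25 µM 42.3%. mlt-10 was at 24.9, 8.08 and 143 FPKM in starvation and 67.6, 7.36 and 112 FPKM in fluphenazine, against 3.22, 3.41 and 11.6 FPKM in controls, so starvation 3, fluphenazine 4 and control 7 stood apart in mlt-10.

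In the list of 5 receptors tied to stress and detoxification, nhr-176, which controls the response of the P450 gene cyp-35D1 to a drug, behaved as the lower set above. It had 1.72, 2.42 and 1.80 FPKM in rpn-6 RNAi and 1.61, 1.16 and 1.88 FPKM in 25 µM bortezomib, against 6.92, 6.06 and 5.18 FPKM in controls, with falls of log2 -1.24 and -1.47 (SE 0.20). In starvation and cantharidin its rises of log2 0.63 and 0.62 reversed under quantile normalization (-0.15 and -0.26). cyp-35D1 fell in all 6 treatments, by log2 1.77 (-1.77) to 2.41 (-2.41) (SE 0.36), whichever way nhr-176 moved.

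nhr-45, which acts in the response to mitochondrial damage, was highest in cantharidin, with 36.3, 34.7 and 31.7 FPKM, against 8.0, 7.86 and 11.4 FPKM in controls (log2 1.82, SE 0.15, adjusted p = 1.96e-07). All cantharidin libraries lay above every other library, and cantharidin was higher than starvation by log2 0.65 (SE 0.15, adjusted p = 0.0051) and than fluphenazine by 0.71 (adjusted p = 0.006). nhr-97, the most abundant member, was also highest in cantharidin, with 116, 123 and 103 FPKM, against 42.4, 47.7 and 52.8 FPKM in controls (log2 1.24, SE 0.19). nhr-14, linked to iron uptake and pathogen resistance, rose in starvation, fluphenazine, cantharidin and 25 µM bortezomib, by log2 0.70 to 1.24 (SE 0.17); the rise at 25 µM reversed under quantile normalization (-0.12). nhr-57, a target of the hypoxia factor hif-1, was called in fluphenazine, rpn-6 RNAi and both bortezomib doses, by log2 0.98 to 1.23. All 4 calls of nhr-57 were lost under quantile normalization, that at 10 µM also after median-of-ratios scaling and without any 1 of the 10 µM or control libraries, and that in fluphenazine in the fit of only the 2 groups. nhr-86, which responds to a bacterial metabolite, rose by log2 0.23 to 0.58 in the 6 treatments, and 4 of these values turned negative under another scaling.

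nhr-2, active in the early embryo, was low in 2 groups where the summed oocyte markers were also low. It had 0.71, 0.92 and 0.36 FPKM in starvation and 2.72, 1.64 and 1.02 FPKM in 25 µM bortezomib, against 13.5, 14.4 and 2.86 FPKM in controls. Control 7 stood apart, as did fluphenazine 4 at 17.5 FPKM beside 1.76 and 0.72 FPKM in the other 2 fluphenazine libraries. The falls were log2 -2.53 in starvation (SE 0.70, adjusted p = 0.0066) and -1.81 in 25 µM bortezomib (adjusted p = 0.038), the second lost without any of 4 single libraries. All 6 oocyte markers were called lower in starvation, beside 18.4% of all tested genes. In fluphenazine and in 25 µM bortezomib 0 of the 6 were called, with medians of log2 -1.46 and -1.31. The sum of the oocyte markers was 57.8 to 473 FPKM in starvation, 264 to 1602 FPKM in fluphenazine and 438 to 816 FPKM in 25 µM bortezomib, against 1079 to 1880 FPKM in controls. The part of the oocyte markers in the values of nhr-2 was not tested.

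nhr-206 had the largest rise of the family in starvation, with 8.81, 7.36 and 13.1 FPKM, against 0.74, 0.59 and 0.68 FPKM in controls (log2 2.65, SE 0.30), and rose by 2.52 in fluphenazine and 2.35 in cantharidin. nhr-116 was higher in starvation, with 9.10, 11.4 and 14.5 FPKM, than in cantharidin, with 2.35, 3.53 and 2.13 FPKM, and in controls, with 1.37, 1.58 and 1.45 FPKM; starvation and cantharidin differed by log2 -1.79 (cantharidin minus starvation, SE 0.23, adjusted p = 3.2e-05). It also rose in fluphenazine (log2 1.31), a call lost under quantile normalization. nhr-112 had 14.1, 9.62 and 18.1 FPKM in fluphenazine, 15.2, 12.2 and 18.5 FPKM in cantharidin and 16, 18.2 and 12.5 FPKM in 25 µM bortezomib, against 2.16, 2.05 and 2.25 FPKM in controls. These 3 groups lay above all others, and their rises of log2 2.20, 2.35 and 2.38 (SE 0.27) exceeded that in starvation, which was not called (0.51, adjusted p = 0.11), in direct contrasts of log2 1.69, 1.84 and 1.86.

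nhr-235 was the member that was low in most treatments. It had 0.13, 0.00 and 0.27 FPKM in starvation, 0.27, 0.00 and 0.39 FPKM in fluphenazine, 0.40, 0.13 and 0.16 FPKM in cantharidin, 0.37, 0.40 and 0.22 FPKM in 10 µM and 0.15, 0.00 and 0.00 FPKM in 25 µM bortezomib, against 2.72, 2.30 and 3.24 FPKM in controls. In rpn-6 RNAi it had 1.91, 0.78 and 1.42 FPKM, so that every treated library lay below every control, and the RNAi libraries lay nearest to them. The falls were log2 -1.49 to -1.83 in the 5 treatments and -0.68 in rpn-6 RNAi (SE 0.18), and the added 1 FPKM makes these values smaller than the ratio of the levels. The fall in rpn-6 RNAi was not called with a pseudocount of 0.1.

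The 2 bortezomib doses can be read gene by gene, since both were measured in 3 libraries. nhr-3 had 9.43, 8.54 and 10.6 FPKM at 10 µM and 32.2, 34.5 and 27.6 FPKM at 25 µM, against 5.59, 7.56 and 7.41 FPKM in controls. The higher dose lay above every other library in the series, the next being 24.2 FPKM in rpn-6 RNAi. The 2 doses differed by log2 1.62 (SE 0.22, adjusted p = 3.1e-05), and the change of 0.43 at 10 µM was not called. nhr-21 had 19.2, 14.7 and 17.5 FPKM at 10 µM and 38.6, 39.5 and 19.9 FPKM at 25 µM, where library 6 lay nearer the lower dose, against 9.98, 10.4 and 9.80 FPKM in controls; it was highest in starvation 3 with 90.4 FPKM. nhr-76, which acts in the control of fat by serotonin, had 7.92, 8.76 and 9.50 FPKM at 10 µM and 16.1, 16.8 and 17.5 FPKM at 25 µM, against 9.72, 12.5 and 14.2 FPKM in controls, and its rise of log2 0.45 at 25 µM turned negative under quantile normalization (-0.40).

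nhr-12 had 2.39, 3.24 and 3.26 FPKM in starvation, against 11.2, 11.8 and 5.60 FPKM in controls (log2 -1.36, SE 0.27, called), with control 7 nearest to the starved worms. nhr-74 and nhr-244 fell in cantharidin, by log2 -1.82 (SE 0.66) and -1.57 (SE 0.54). Both rest on uneven groups: nhr-74 had 1.82, 2.24 and 1.28 FPKM in cantharidin, against 9.59, 10.4 and 6.64 FPKM in controls, and ran from 0.66 to 17.0 FPKM within starvation. Neither passed the F-test over the 7 groups, and both calls were lost with a pseudocount of 0.1 and without control 4, control 6 or any 1 of the cantharidin libraries. In the other 5 treatments both genes had means below the control mean, with no call. Of the remaining rises, nhr-202 had 15.5, 12.5 and 18.4 FPKM in fluphenazine, against 3.31, 2.82 and 2.66 FPKM in controls (log2 2.05, SE 0.23), and nhr-208 had 6.94, 5.61 and 9.64 FPKM in starvation, against 0.19, 0.66 and 0.50 FPKM in controls (log2 2.52, SE 0.27). nhr-180 had 12.6, 13.2 and 12.9 FPKM in cantharidin and 2.40, 2.28 and 1.52 FPKM in rpn-6 RNAi, against 2.24, 1.52 and 3.18 FPKM in controls. It rose by log2 2.10 in cantharidin (SE 0.22), while rpn-6 RNAi overlapped the controls. nhr-40, which acts in embryo and muscle development, rose in all treatments but 10 µM bortezomib, by log2 0.60 to 1.09; its rise of 0.60 in cantharidin was not called after either rescaling, and that of 0.74 in 25 µM bortezomib turned negative under quantile normalization (-0.01).

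The receptors without an nhr- number were set beside the family. daf-12, the receptor for dafachronic acid, a bile acid-like steroid, rose in all treatments but 10 µM bortezomib, by log2 0.58 to 1.04 (SE 0.22), and sex-1 fell in starvation (-1.23, SE 0.43). daf-36, an oxygenase at the start of dafachronic acid synthesis, had 2.68, 3.02 and 2.99 FPKM in rpn-6 RNAi, 2.69, 2.58 and 3.15 FPKM in 25 µM bortezomib and 5.28, 4.69 and 3.18 FPKM in starvation, against 16.1, 15.3 and 21.6 FPKM in controls. It fell in 5 treatments, by log2 0.78 (-0.78) in cantharidin to 2.28 (-2.28) in 25 µM bortezomib (SE 0.17), and at 10 µM bortezomib (18.9, 17.3 and 18.9 FPKM) it overlapped the controls. Of the 8 pathway genes tested, ncr-1, a sterol transporter, rose in all 6 treatments, by log2 0.69 to 1.97. Over the 8, 5 rose and 1 fell in starvation, beside 39.1% and 18.4% of all tested genes. In fluphenazine 4 rose and 1 fell (34.4% and 9.39% of all genes), and in cantharidin 3 and 1 (31.9% and 5.96%). In rpn-6 RNAi 3 rose and 1 fell (27.9% and 8.81%). At 10 µM bortezomib 2 rose and 0 fell (9.61% and 3.24%), and at 25 µM 4 and 2 (42.3% and 11.1%).

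Receptor genes that lie next to each other had profiles more alike at the median than other pairs, but single pairs and runs varied widely. Over the 60 adjacent pairs of members the median Pearson correlation of log2(FPKM + 1) across the 21 libraries was 0.76, beside 0.43 for 7109 other pairs on the same chromosome and 0.41 for 10222 pairs on different chromosomes. The points share libraries and scaling, and the pairs share genes, so these values are descriptions. The run nhr-18, nhr-56, nhr-96, nhr-103, nhr-126, nhr-128 and nhr-134 on chromosome V had a median of 0.93 over its pairs. It was picked as the most alike of the runs of 7 members, where the others had medians of 0.77 and 0.69. Runs of 5 members had medians of 0.21, 0.35 and 0.58, and the pair nhr-12 and nhr-205 had 0.11. nhr-18 had 17.8, 22.1 and 25.9 FPKM in starvation and 14.9, 15.0 and 16.8 FPKM in fluphenazine, against 3.14, 3.63 and 3.80 FPKM in controls, with rises of log2 2.33 and 1.87 (SE 0.14). nhr-103 and nhr-126 had rises of 1.82 and 1.77 in starvation.

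The pair nhr-50 and nhr-63 had the highest correlation (0.98) and another order of groups. nhr-50 had 15.7, 16.2 and 17.2 FPKM in cantharidin and 16.5, 15.2 and 14.6 FPKM in 25 µM bortezomib, beside 5.19, 4.95 and 9.07 FPKM in starvation, against 2.88, 3.20 and 4.02 FPKM in controls. Cantharidin and 25 µM bortezomib were higher than starvation by log2 1.27 and 1.19 (SE 0.25). Not every pair was alike: nhr-235, low in most treatments, lies beside nhr-234, and their correlation was -0.63. Shared reads between neighbouring copies were not tested.

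**Figure D5:**
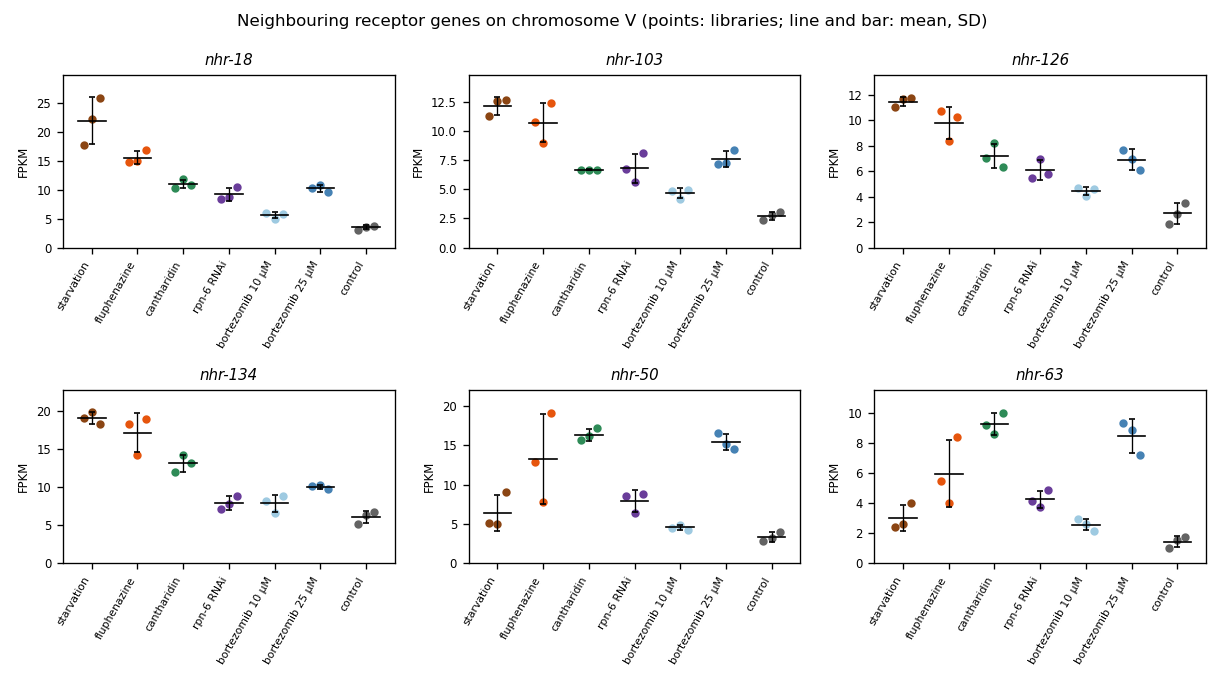
FPKM of 4 members of the run on chromosome V (nhr-18, nhr-103, nhr-126 and nhr-134) and of the adjacent pair nhr-50 and nhr-63 in every library (points), with the mean and SD of each group (line and bar). The run and the pair were picked for their high correlation. The 4 run members are highest in starvation or fluphenazine, and nhr-50 and nhr-63 are highest in cantharidin, 25 µM bortezomib or, in 1 library, fluphenazine.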

How the data were processed

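RNA-seq libraries of whole C. elegans were deposited by the authors as 1 table of FPKM with 21 columns. Per the submitters' processing notes, CASAVA and Cufflinks were used; the aligner, genome build, filters and use of strand are not given in the sources used here. Titles of bortezomib libraries were read as a replicate number followed by the dose. The table has 46254 gene IDs, and 43200 were matched by their WormBase ID with symbols; positions and neighbours are from the WBcel235 annotation, release 115.

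The 17492 genes that reached 1 FPKM in 3 or more libraries were tested as log2(FPKM + 1) with limma 3.58.1 in R 4.3.3 (lmFit, eBayes with trend, 1 mean per group over all 21 libraries, 14 residual and 2.01 prior degrees of freedom). All tests were two-sided, p-values were adjusted by Benjamini-Hochberg over all tested genes, and "called" means an adjusted p under 0.05. Fold changes are log2 differences of log2(FPKM + 1), which understate changes of low genes; n = 3 per group. In all, 21 contrasts were fitted, 6 treatments against control and 15 pairs of treatments, beside an F-test over the 7 groups. The fit was also run on simulated data in which each gene's deviations were shuffled separately over the libraries. That run held no shifts of whole libraries, so it cannot show how calls behave under them. Python 3.11.15 with numpy 2.4.6, pandas 2.3.3 and matplotlib 3.10.9 were used for the tables and plots.

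Absolute depth is unknown. Relative depth came from the steps that whole fragments leave among low values of a gene in 2 libraries; 41.6% to 60.5% of values lay within log2 0.03 of a step, against 1.75% to 6.51% for shifted steps. No 2 columns were identical. Some zeros in abundant genes may be failed estimates; 5 receptor genes had a zero, none with a median of at least 1 FPKM.

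The receptor genes, the gene lists and the tests were chosen with earlier results of these data known. Named genes are the 10 members of highest mean, the 10 of largest F, up to 4 largest rises and falls per comparison among called members with a group mean of at least 2 FPKM and no overlap, the members of 4 role lists, and the called genes of largest change in the partner lists; nhr-154 was added after its values were seen. Alternatives were a pseudocount of 0.1, no filter, median-of-ratios scaling, quantile normalization, fits limited to a pair of groups with and without a replicate block, and each library left out. Leaving out control 7, starvation 3 and fluphenazine 4 together, and the 6-contrast count, were added after the data were seen.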

Additional observations from a re-analysis of the deposited data

Results flagged for a closer look

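For 6 named receptor genes the 2 bortezomib doses lay on opposite sides of the controls, with 2 calls. Those were the change at 25 µM against control and the direct contrast between doses. The difference is 25 µM minus 10 µM on the log2 scale. It was -1.82 for nhr-68, -1.29 for nhr-121, -1.78 for nhr-55 and -1.94 for nhr-2, all lower at 25 µM. It was 0.87 for nhr-76 and 1.08 for nhr-14, both higher at 25 µM. None of the 6 differed from control at 10 µM by the test (log2 0.09, 0.17, 0.18, 0.13, -0.42 and -0.38 in the order given), so the contrast between doses is the tested result and the side on which the lower dose lies is not. Under quantile normalization both doses lay below the controls for all 6. The dose contrast of nhr-2 was not called without any 1 of the 10 µM libraries or without 25 µM library 4 or 6, and that of nhr-76 under quantile normalization. With 3 libraries a group, no single library could be tested for standing apart.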

How the results depend on the processing

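Of 265 log2 changes of named receptor genes, 123 kept their direction and their call under every setting tried and 142 lost the call or changed sign under at least 1, 35 of them changing sign. Counts of receptor genes are given as higher and lower. With a pseudocount of 0.1, 2 were lower in cantharidin. After median-of-ratios scaling, 12 were lower in starvation, 10 in fluphenazine, 8 in cantharidin and 30 in rpn-6 RNAi, with 15 and 6 in 10 µM bortezomib and 65 and 34 in 25 µM. Under quantile normalization the counts were 51 and 18 in starvation, 43 and 28 in fluphenazine, 26 and 26 in cantharidin, 27 and 50 in rpn-6 RNAi, 9 and 13 in 10 µM bortezomib, 23 and 76 in 25 µM, and 16 and 53 for 25 µM against 10 µM. Fitting only the 2 groups gave 78 and 1 in fluphenazine and 23 and 1 in 10 µM bortezomib. Without control 7, starvation 3 and fluphenazine 4 together, 16 were lower in starvation, 10 in fluphenazine, 9 in cantharidin and 23 in 25 µM bortezomib, 62 were higher in 10 µM bortezomib, and 12 were higher in all 6 direct contrasts. The cause of these shifts was not tested.

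Leaving out 1 library at a time moved 6 of these counts by more than 1.5 times. Those lower ran over 4 to 9 in starvation (9 without starvation 3 or control 7), 2 to 5 in fluphenazine (5 without fluphenazine 4 or control 7), 2 to 7 in cantharidin (2 without any 1 of its libraries or control 4 or 6, 7 without control 7), 1 to 2 in 10 µM bortezomib and 12 to 19 between the doses (12 without 10 µM library 7). Those higher in 10 µM bortezomib ran over 17 to 33 (17 without its library 9, 18 without its library 7). The other counts, the direct contrasts and the F-test among them, stayed within 1.5 times.

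After median-of-ratios scaling these changes turned negative: nhr-23 in fluphenazine (-0.043), nhr-274 in 25 µM bortezomib (-0.0012), and nhr-86 in starvation (-0.11), fluphenazine (-0.0047), cantharidin (-0.12) and 25 µM bortezomib (-0.069). Quantile normalization turned more negative. In starvation they were nhr-176 (-0.15), nhr-228 (-0.11), nhr-50 (-0.12) and nhr-55 (-0.30). In fluphenazine they were nhr-104 (-0.10), nhr-11 (-0.38), nhr-182 (-0.36) and nhr-48 (-0.043). In cantharidin they were nhr-104 (-0.020), nhr-11 (-0.19), nhr-176 (-0.26), nhr-182 (-0.10), nhr-228 (-0.18), nhr-48 (-0.20), nhr-60 (-0.14), nhr-62 (-0.28) and nhr-86 (-0.057). In rpn-6 RNAi they were nhr-45 (-0.12), nhr-48 (-0.020) and nhr-76 (-0.024). In 25 µM bortezomib they were nhr-14 (-0.12), nhr-180 (-0.38), nhr-202 (-0.089), nhr-274 (-0.13), nhr-40 (-0.011), nhr-45 (-0.17), nhr-48 (-0.050), nhr-76 (-0.40) and nhr-86 (-0.085). Between the doses they were nhr-11 (-0.011), nhr-45 (-0.11) and nhr-48 (-0.11).

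With the replicate number as a block, 73 were higher and 16 lower in rpn-6 RNAi, and 83 and 14 in 25 µM bortezomib. Deviations of same-numbered libraries correlated at -0.16 and -0.13 for rpn-6 RNAi with control and at 0.05 and -0.26 for 25 µM bortezomib with control, so the numbers were not taken to pair the libraries. No paired analysis was possible because of fewer than 2 shared replicate numbers in the other 5 comparisons, which are cantharidin, fluphenazine, starvation or 10 µM bortezomib with control and the contrast of doses. The files give no depth in fragments, which leaves the counting error of low genes unknown.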
